A study of Mus musculus with 58 samples.

Results

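The SR splicing factors are a family of serine- and arginine-rich RNA-binding proteins, and 10 of their genes were followed here: Srsf1, Srsf2, Srsf3, Srsf4, Srsf5, Srsf6, Srsf7, Srsf9, Srsf10 and Srsf11. Members were found by matching the transcript accession of each array probe to a gene symbol, and the symbols were chosen by measured values, the differences between dose groups and vehicle in log2 ratio on these same arrays. The match gave 18 probes of 9 genes, out of 20018 gene symbols with a probe on the array. Srsf4, Srsf5 and Srsf9 had 1 probe each, Srsf2, Srsf6 and Srsf7 had 2, and Srsf1, Srsf3 and Srsf10 had 3. No probe accession matched Srsf11, which is not analysed here.

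SR proteins bind exonic enhancer sequences in pre-mRNA and help the spliceosome choose splice sites. Their arginine- and serine-rich tails are phosphorylated by the SRPK kinases in the cytoplasm and by the CLK kinases in the nucleus, which sets where the proteins sit and whether they are active. SR transcripts are themselves alternatively spliced, and versions that take up a so-called poison exon, which carries an early stop codon, are degraded by nonsense-mediated decay, so probes on different parts of one SR gene need not report the same RNA.

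Male Muta™Mouse animals, transgenic mice that carry a bacterial lacZ reporter for scoring mutations, were 10 weeks old. Benz(a)anthracene (BaA) belongs to the polycyclic aromatic hydrocarbons. It was given by daily gavage in olive oil for 28 days, controls received the oil alone, and lung, liver and forestomach were collected 72 h after the last dose. The daily dose was 20 mg per kg body weight in D1, 40 in D2 and 80 in D3, and D0 was the vehicle group. Each of the 58 arrays carried 1 tissue of 1 mouse, labelled with Cy5, against a universal mouse reference RNA labelled with Cy3, and each level below is the log2 ratio of sample over reference after loess normalization. Groups held 5 mice, except D3 liver and D0 forestomach with 4. A negative level means less signal than in the reference, and the levels of different probes are not comparable with each other.

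The arrays had 34.1% to 69.2% of gene probes well above background in Cy5. All 5 lung epithelial markers were detected in lung, all 5 hepatocyte markers in liver and all 5 squamous epithelial markers in forestomach. Each of them had its highest D0 mean in that tissue, but detection was not confined to it. All 5 hepatocyte markers were also detected in forestomach and 3 in lung. Of the squamous markers 3 were detected in lung and 1 in liver. The lung marker Scgb1a1 was detected in forestomach, with a D0 mean of 5.44 against 8.62 in lung. The forestomach arrays also detected all 6 markers of the glandular stomach, whose mean level ranged from 1.08 to 6.09 in D0 mice and from 1.58 to 6.33 in D3 mice. Each tissue had its own 3 slides, every slide held all 4 dose groups, and on 58 of 58 arrays the slide column matched the dose group, so column position and dose cannot be told apart. In bulk tissue, fewer cells of a type and less RNA per cell cannot be told apart either.

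The sequence upstream of an annotated transcription start is shown for Srsf5 and Srsf6, from RefSeq on GRCm38.p6. Srsf5 was the member with the largest dose-related difference, and Srsf6 the member next to it in lung. Both genes lie on the plus strand. The Srsf5 window is chr12:80945249-80945498 and the Srsf6 window is chr2:162931258-162931507, 250 bases each, read 5′ to 3′. The span of the Srsf5 gene opens at 80945495, so the last bases of its window lie inside that span. Capitals mark the core of the aryl hydrocarbon receptor (AhR) element, GCGTG, or its reverse complement.
Srsf5: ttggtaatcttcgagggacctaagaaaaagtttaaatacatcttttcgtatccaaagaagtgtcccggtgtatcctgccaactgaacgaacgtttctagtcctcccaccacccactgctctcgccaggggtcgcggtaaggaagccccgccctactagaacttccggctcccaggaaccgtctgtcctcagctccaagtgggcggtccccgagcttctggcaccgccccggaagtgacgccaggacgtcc
Srsf6: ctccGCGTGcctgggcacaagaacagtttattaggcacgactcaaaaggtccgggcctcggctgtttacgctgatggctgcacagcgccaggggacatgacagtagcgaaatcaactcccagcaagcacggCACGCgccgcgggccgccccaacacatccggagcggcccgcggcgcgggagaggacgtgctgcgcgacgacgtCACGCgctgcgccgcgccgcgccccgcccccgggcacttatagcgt

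The Srsf6 window held 3 AhR cores and the Srsf5 window none. Over the 300-base promoters of RefSeq, 250 bases before to 50 after a start, 8 of 13 promoters of the 10 member genes held an AhR core on either strand, against 32.4% of 32851 mouse promoters. The 8 count overlapping Srsf4 promoters that share a site separately, and include those of Srsf11, which has no probe here. A heat shock element written as GAANNTTC was found in 1 of the 13, that of Srsf9, against 7.86% of all promoters. Neither the E-box CACGTG (7.15% of all promoters) nor the cyclic AMP element TGACGTCA (1.79%) occurred in a member promoter. A match is a string of letters in the window and says nothing about binding.

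Srsf5 stood at the end of the family's range in lung. The gene lies at chr12:80945495-80950507 on GRCm38.p6. Its protein binds exonic enhancers and acts as a splicing activator, and its single probe, A_55_P2157872, was well above background on all 58 arrays. The 5 D0 lungs read -1.23, -1.26, -1.23, -0.96 and -1.38. At D1 the lungs read -0.74, -0.78, -0.75, -0.83 and -0.40, at D2 0.27, -0.38, 0.05, -0.08 and 0.34, and at D3 0.17, 0.40, 0.45, 0.48 and 0.07. Every exposed lung was above every D0 lung, the D1 and D2 lungs nearly touched, and the D2 and D3 lungs overlapped. Group means were -1.21 ± 0.16 (SD, n = 5) at D0, -0.70 ± 0.17 at D1, 0.04 ± 0.29 at D2 and 0.32 ± 0.18 at D3. The level differed from D0 by 0.51 ± 0.13 (SE) at D1, 1.25 ± 0.13 at D2 and 1.53 ± 0.13 at D3 on the log2 scale, the last being 2.88-fold.

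The forestomach showed the same order of dose groups for Srsf5 with smaller differences. The 4 D0 forestomachs read -0.98, -1.31, -0.99 and -0.80. At D1 they read -0.71, -0.96, -0.30, -0.55 and -0.46, at D2 0.10, -0.20, -0.24, -0.20 and -0.45, and at D3 -0.05, 0.14, 0.14, -0.13 and -0.37. All D2 and D3 forestomachs were above all D0 forestomachs, whereas D1 overlapped D0. The differences from D0 were 0.42 ± 0.14 (SE), 0.82 ± 0.14 and 0.97 ± 0.14 at D1, D2 and D3, the last being 1.95-fold.

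The liver gave Srsf5 another order. The 5 D0 livers read -0.81, -0.66, -0.86, -0.85 and -1.46, the last of these being mouse 5. At D1 the livers read -1.82, -1.70, -1.25, -1.79 and -1.40, at D2 -0.58, -1.40, -1.73, -1.14 and -1.28, and the 4 D3 livers -0.63, -0.48, -0.38 and -0.23. The D1 livers lay below the D0 livers other than mouse 5, and all D3 livers lay above all D0 livers. The differences from D0 were -0.67 ± 0.18 (SE) at D1, -0.30 ± 0.18 at D2 and 0.50 ± 0.19 at D3. Without mouse 5 the D1 difference was -0.80 and met the thresholds given next.

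**Figure D1:**
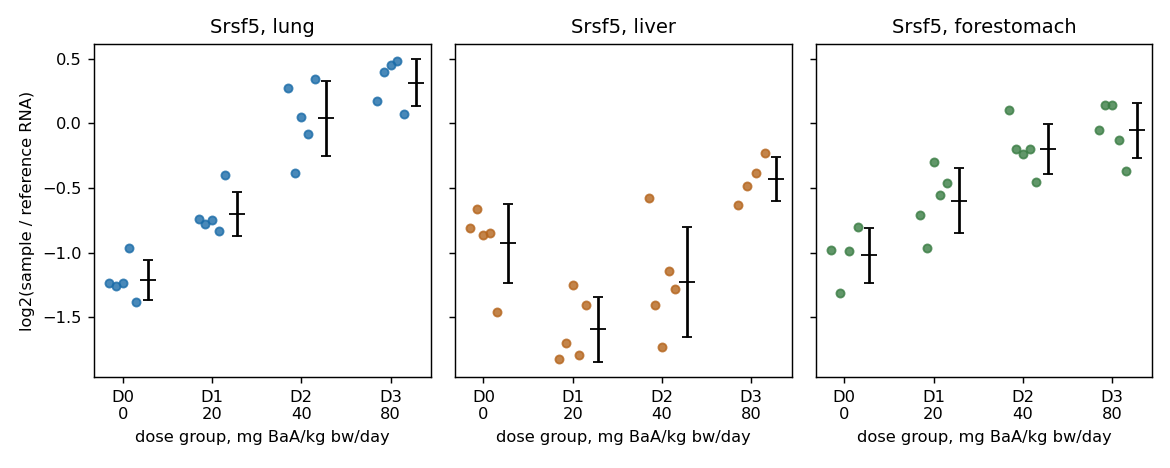
Srsf5 level, as the log2 ratio of tissue RNA over reference RNA, in each mouse by dose group and tissue. Points are single mice and bars show the group mean ± SD, with every exposed lung above every D0 lung and the D1 liver group, mean -1.59, below the D0 liver group, mean -0.93.

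A probe was called where limma gave an adjusted p of at most 0.05, with Benjamini-Hochberg adjustment over all probes tested in the tissue, and a fold change of at least 1.5. The members were selected with these contrasts in view, so their calls are given as a description. Srsf5 was the one member probe called in lung, at D2 (1 of 18 tested, against 0.556% of all 30383 probes tested) and at D3 (1 of 18, against 1.88%), and none was called at D1 (0% of all). In forestomach Srsf5 was called at D3 (1 of 17, against 0.0248% of 32318), with no member called at D2 (0.0124%) or D1 (0%). In liver no member was called at D1 (0.241% of 22789 probes), D2 (0.588%) or D3 (0.434%). At limma's unadjusted p under 0.05, 1, 9 and 9 of the 18 lung member probes passed at D1, D2 and D3, beside 2267, 4862 and 7254 of all 30383. In liver 7, 9 and 7 of 17 passed, beside 1713, 2909 and 3417 of 22789, and in forestomach 3, 3 and 6 of 17, beside 1427, 1063 and 1652 of 32318. The call of Srsf5 in lung was lost with median centring of the arrays, where its D3 difference was 1.71, and that in forestomach was lost with median centring (0.83), with Agilent's processed signals (0.98), in a fit of D0 and D3 alone (0.97) and without mouse 1, 2, 3, 17 or 18 (0.87 to 0.98).

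The differences of Srsf5 were present within single slides. Between D3 and D0 lungs of the same slide they were 1.43 to 1.72 over 3 slides, between forestomachs 1.03 to 1.06, and between livers 0.33 to 0.55. The Cy5 signal alone, which carries the mouse RNA, differed at D3 by 1.36 (lung), 0.53 (liver) and 1.01 (forestomach), and the Cy3 signal of the reference by -0.06, 0.00 and 0.09. In the authors' own table of log2 ratios the 3 differences were 1.47, 0.49 and 0.91.

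The Srsf5 effect of D3 was larger in lung than in liver by 1.03 ± 0.22 (SE) in the fit of all 58 arrays, which was past the thresholds (1 of 17 member probes, against 2.07% of all probes tested in both tissues). This difference was not past the thresholds with median centring (1.27). Lung exceeded forestomach by 0.56 ± 0.22 and the liver minus forestomach difference of the effect was -0.47 ± 0.23, neither of them called, and no other member was called in either comparison (0.257% and 0.0453% of all probes). At limma's unadjusted p under 0.05 it was 4 of 17 in each, beside 2385 of 28434 and 1529 of 22074 of all probes. These contrasts derive from the values that chose the members.

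The Srsf5 levels of the same mouse, taken relative to its dose group, had positive correlations between tissues, which were not tested. After subtraction of group means, Pearson's r of the Srsf5 level was 0.46 between lung and liver (19 mice), 0.32 between lung and forestomach (19 mice) and 0.40 between liver and forestomach (18 mice), given as a description over mice that share their dose group means.

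Outside Srsf5 the family varied within narrow limits. The other 17 probes differed from D0 by -0.38 to 0.57 in lung at D3, and the 16 others tested in liver and forestomach by -0.41 to 0.47 and by -0.32 to 0.35. The median over the member probes at D3 was 0.03 in lung, -0.04 in liver and -0.08 in forestomach, beside 0.00, 0.00 and -0.01 over all probes tested. The direction was mixed: 9 of 18 lung probes were higher and 9 lower. At the lower doses of liver 15 of 17 probes were lower at D1 and 14 of 17 at D2, with medians of -0.20 and -0.25 beside 0.00 and -0.01 over all probes, of which 49.6% and 46.9% were higher. D3 and D0 arrays did not overlap for 6 of 18 member probes in lung (7.47% of all probes), 1 of 17 in liver (5.23%) and 3 of 17 in forestomach (1.96%).

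**Figure D2:**
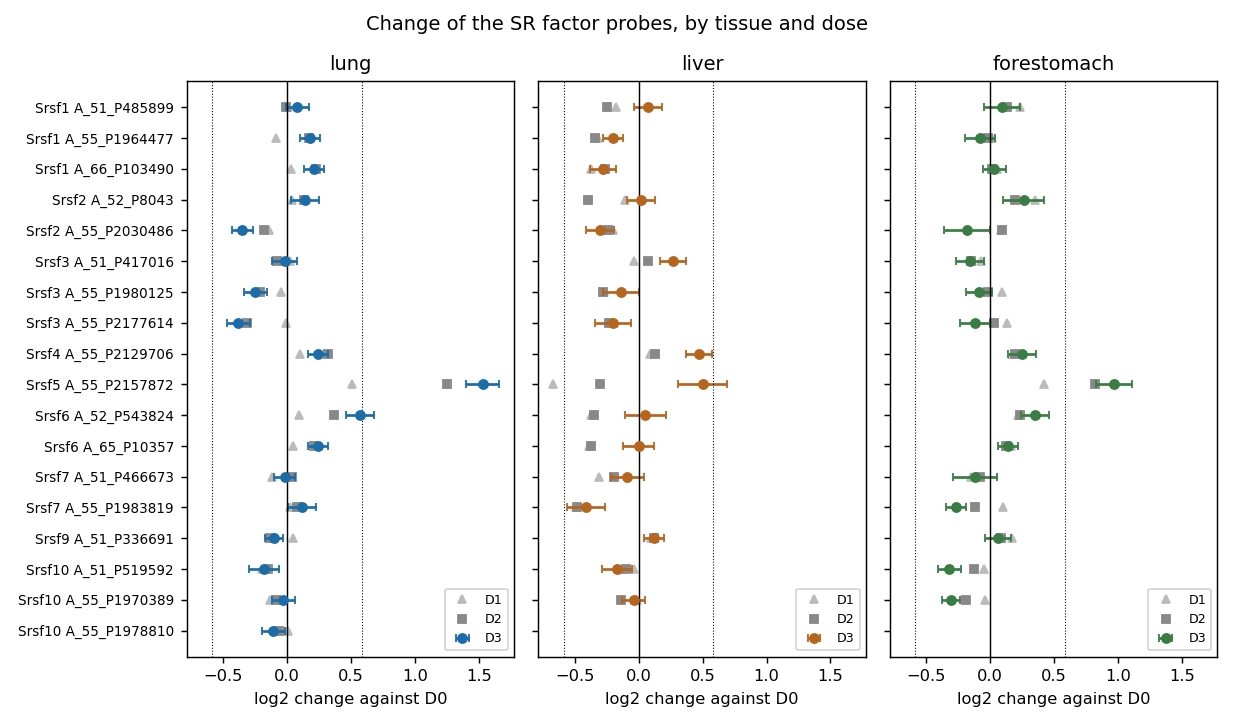
Log2 difference from D0 of each SR factor probe in lung, liver and forestomach at D1 (triangles), D2 (squares) and D3 (circles with ± SE). Dotted lines mark a 1.5-fold difference in either direction, which Srsf5 passed at D2 and D3 in lung and forestomach and in the opposite direction at D1 in liver.

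Srsf6, another SR protein of the activator type, came next in lung and sat just under the fold threshold. Probe A_52_P543824 read -1.37, -1.35, -1.20, -1.11 and -1.63 in D0 lungs and -0.85, -0.76, -0.54, -0.54 and -1.10 in D3 lungs. The highest D0 lung and the lowest D3 lung were nearly equal, and the groups did not overlap. Means ran from -1.33 ± 0.20 (SD) at D0 through -1.24 ± 0.10 and -0.96 ± 0.14 to -0.76 ± 0.23 at D3, a difference of 0.57 ± 0.11 (SE) or 1.49-fold. It was called in the Cy5 channel alone (0.59), with Agilent's processed signals (0.80) and without mouse 3, 4, 16 or 20 (0.60 to 0.66). The other Srsf6 probe, A_65_P10357, read -0.97, -0.87, -0.79, -0.92 and -0.80 at D0 and -0.78, -0.64, -0.62, -0.44 and -0.68 at D3, a difference of 0.24 ± 0.08. Both probes moved the same way, and over the 20 lungs they correlated with r = 0.73. In forestomach the differences at D3 were 0.35 ± 0.11 and 0.14 ± 0.08, and D0 and D3 overlapped for both. In liver they were -0.37 ± 0.15 and -0.39 ± 0.12 at D1 and 0.05 ± 0.16 and 0.00 ± 0.12 at D3.

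Of all other member probes, A_52_P543824 of Srsf6 followed Srsf5 most closely in lung, with r = 0.90 over 20 arrays and 0.77 once dose group means were subtracted. In liver the values were 0.74 and 0.61, and in forestomach 0.51 and -0.07. Srsf4, a long-tailed SR protein, followed with r = 0.76 in lung, 0.57 in liver and 0.54 in forestomach. With dose group means subtracted its values were 0.38, 0.41 and 0.23. The other Srsf6 probe, A_65_P10357, gave 0.76, 0.74 and 0.39 in these tissues, and 0.48, 0.56 and 0.15 with the means subtracted. Other member probes ran against Srsf5 in lung. Srsf3 A_55_P2177614 gave -0.80 there, or -0.36 with the means subtracted, beside 0.04 in liver and -0.09 in forestomach. Srsf3 A_55_P1980125 and Srsf2 A_55_P2030486 gave -0.63 and -0.61 in lung, or -0.14 and 0.43 with the means subtracted.

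Srsf2, a core component of nuclear speckles, had probes that went apart. Probe A_55_P2030486 read -1.10, -0.99, -1.03, -1.06 and -0.94 in D0 lungs and -1.59, -1.24, -1.39, -1.24 and -1.39 in D3 lungs, all below D0. The difference was -0.35 ± 0.08 (SE), or -0.05 with median centring. Probe A_52_P8043 read -0.77, -0.80, -0.84, -0.81 and -0.55 at D0 and -0.91, -0.33, -0.49, -0.41 and -0.92 at D3, with 2 lungs below and 3 above the D0 range and a difference of 0.14 ± 0.11. The changes of these Srsf2 probes thus stood 0.49 apart in lung, 0.33 in liver and 0.44 in forestomach, always with A_52_P8043 the higher, and their levels hardly correlated over arrays (r = 0.10, 0.06 and 0.33). The array files give both the same transcript accession, and where on the transcript each lies was not analysed here.

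Srsf3, a small SR protein with a role in mRNA export, had 1 probe apart from the other 2 in lung. Probe A_55_P2177614 read -0.04, 0.05, -0.07, -0.38 and -0.15 in D0 lungs and -0.48, -0.59, -0.52, -0.58 and -0.31 in D3 lungs. Only mouse 4 at D0 reached into the D3 range, and the difference was -0.38 ± 0.09 (SE), or -0.08 with median centring. Probe A_55_P1980125 read -0.15, -0.03, -0.04, -0.38 and -0.36 at D0 and -0.46, -0.50, -0.46, -0.38 and -0.42 at D3, -0.25 ± 0.09 apart. These Srsf3 probes correlated with r = 0.89 in lung, 0.84 in liver and 0.81 in forestomach. The last Srsf3 probe, A_51_P417016, differed by -0.02 ± 0.10 in lung and correlated with them by 0.40 and 0.46. In forestomach the correlations were 0.63 and 0.66, and the D3 differences of the 3 probes lay between -0.16 and -0.09. With median centring the D3 difference of A_55_P1980125 was 0.06, so its direction rested on the scaling.

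**Figure D3:**
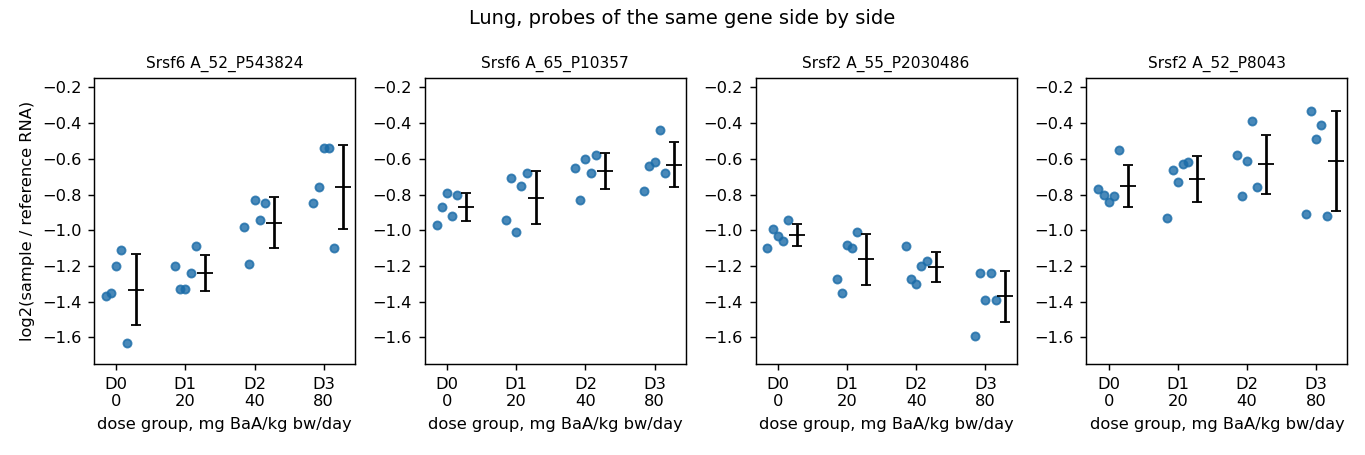
Lung levels of both Srsf6 probes and both Srsf2 probes by dose group, as log2 ratios over the reference. Points are mice and bars the mean ± SD, and the Srsf6 probes differ from D0 by 0.57 and 0.24 at D3 where the Srsf2 probes differ by -0.35 and 0.14.

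In liver the largest member differences at D3 after Srsf5 belonged to Srsf4 and Srsf7. Srsf4 read -0.15, 0.19, -0.16, -0.21 and -0.27 in D0 livers and 0.11, 0.28, 0.48 and 0.55 in D3 livers. The D0 liver of mouse 2 lay above the lowest D3 liver, and the difference was 0.47 ± 0.10 (SE), or 0.55 without mouse 2. Srsf4 differed by 0.24 ± 0.08 in lung, where at D2 every mouse was above D0 (0.32 ± 0.08), and 0.25 ± 0.11 in forestomach. Srsf7, which shuttles between nucleus and cytoplasm and aids mRNA export, read -1.85, -2.14, -1.83, -1.98 and -2.51 with probe A_55_P1983819 in D0 livers and -2.75, -2.34, -2.54 and -2.25 in D3 livers. The D0 liver of mouse 5 fell among the D3 livers, and the difference was -0.41 ± 0.15. The same probe differed by -0.49 ± 0.14 at D1 and -0.48 ± 0.14 at D2, and the other Srsf7 probe by -0.31 ± 0.12, -0.19 ± 0.12 and -0.09 ± 0.13 over D1 to D3.

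In forestomach Srsf10, which can act as a splicing repressor when it loses its phosphate groups, stood below D0. Probe A_51_P519592 read 0.38, 0.25, 0.64 and 0.37 in D0 forestomachs and 0.16, 0.13, -0.02, 0.13 and 0.03 in D3 forestomachs, with no overlap. The difference was -0.32 ± 0.09 (SE), and probe A_55_P1970389 gave -0.31 ± 0.07, also without overlap. The latter ran against Srsf5 over the 19 forestomachs (r = -0.86, and -0.64 within dose groups). In lung these Srsf10 probes differed by -0.18 ± 0.12 and -0.03 ± 0.09. One more probe, A_55_P1978810, made for another Srsf10 transcript, was well above background on 5 of 20 lung, 0 of 19 liver and 2 of 19 forestomach arrays, and was tested in lung alone (-0.11 ± 0.09).

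Srsf1 and Srsf9 had no probe called at any dose. The 3 probes of Srsf1, the founding member of the family, differed from D0 at D3 by 0.08, 0.18 and 0.21 in lung, by 0.07, -0.20 and -0.28 in liver and by 0.09, -0.08 and 0.03 in forestomach. The lower doses gave larger differences in liver. Probe A_55_P1964477 read -0.31, -0.14, -0.21, -0.08 and -0.20 in D0 livers, -0.40, -0.66, -0.57, -0.53 and -0.39 in D1 livers and -0.58, -0.47, -0.60, -0.33 and -0.68 in D2 livers. Every D1 and D2 liver was below every D0 liver, with differences of -0.32 ± 0.08 (SE) and -0.34 ± 0.08. Srsf1 probe A_66_P103490 was also below D0 in every D1 and D2 liver, with differences of -0.37 ± 0.10 and -0.26 ± 0.10, whereas A_51_P485899 overlapped D0. Srsf9, a close relative of Srsf1, differed at D3 by -0.10 ± 0.07 (SE) in lung, 0.12 ± 0.08 in liver and 0.06 ± 0.10 in forestomach.

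Single members differed between tissues without BaA, a comparison the choice of members did not use. The shares of member probes called were below those of all probes in each of the 3 comparisons. Tissue and slide cannot be told apart here. In vehicle mice 5 of 18 member probes were called higher in lung than in liver and 1 lower (46.6% of all probes were called), 1 of 17 was higher in liver than in forestomach and 5 lower (39.1% of all), and 0 of 18 differed between lung and forestomach (30.8% of all). By limma without the fold threshold 7 of the 18 passed between lung and forestomach, the same number as at an unadjusted p under 0.05. Of all probes 20029 of 34267 had an unadjusted p under 0.05 there, a larger share than among the members.

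Srsf3 carried the largest tissue difference. With A_55_P2177614 the D0 lungs read -0.04, 0.05, -0.07, -0.38 and -0.15, the D0 livers -1.65, -1.96, -1.79, -2.08 and -1.38, and the D0 forestomachs -0.62, -0.63, -0.04 and -0.63. Every liver lay below every lung and forestomach. Lung exceeded liver by 1.65 ± 0.12 (SE, 3.15-fold, limma adjusted p = 2.27e-18) and forestomach exceeded liver by 2.44-fold (adjusted p = 2.04e-13). The other Srsf3 probes gave lung over liver folds of 3.1 (A_55_P1980125, adjusted p = 4.57e-19) and 1.91 (A_51_P417016, adjusted p = 5.06e-12), the latter well above background on 9 of 19 liver arrays, 3 of the 5 D0 livers among them.

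Srsf1 and Srsf6 had probes that disagreed between tissues. Srsf1 probe A_51_P485899 was 1.67-fold higher in lung than in liver (adjusted p = 5.74e-08 by limma), from -0.65 ± 0.09 (SD, n = 5) to -1.39 ± 0.10, and 1.70-fold higher in forestomach than in liver (adjusted p = 1.5e-07). The lung call was lost with median centring (0.95), and with the Cy5 channel normalized over all arrays both calls were lost, lung minus liver being 0.49 and liver minus forestomach -0.46. The other Srsf1 probes had lung minus liver differences of -0.21 ± 0.09 (SE) and -0.02 ± 0.08, neither past the fold threshold. Srsf6 probe A_52_P543824 was higher in liver, at -0.44 ± 0.26, than in lung at -1.33 ± 0.20 (SD, n = 5; 1.85-fold, limma adjusted p = 1.64e-08) or forestomach (1.75-fold, adjusted p = 6.81e-07). Its partner A_65_P10357 had a lung minus liver difference of -0.18 ± 0.09 (SE) and was highest in forestomach, at -0.44 ± 0.09 (SD, n = 4), where it exceeded liver by 1.19-fold. The higher liver level of A_52_P543824 was not called with median centring (lung minus liver -0.51), and it turned in the Cy5 channel alone against lung (0.18) and forestomach (liver minus forestomach -0.39), and with median centring against forestomach (-0.07).

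Srsf9 was 1.55-fold higher in lung than in liver (limma adjusted p = 1.44e-10) and lay between them in forestomach, with means of -0.48 ± 0.08 (SD, n = 5), -1.12 ± 0.10 (n = 5) and -0.81 ± 0.09 (n = 4). It fell under the fold threshold with Agilent's processed signals (0.49) and with the Cy5 channel normalized over all arrays (0.39), and was not called with median centring (0.66). Srsf7 probe A_55_P1983819 was 1.68-fold higher in forestomach than in liver (limma adjusted p = 5.36e-07). The other Srsf7 probe, A_51_P466673, was 1.38-fold higher there, under the fold threshold. Srsf5 itself did not differ past the thresholds between vehicle tissues in the main fit. Lung stood at -1.21 ± 0.16 (SD, n = 5), liver at -0.93 ± 0.31 (n = 5) and forestomach at -1.02 ± 0.21 (n = 4), and these neighbours lay within their spread. Of 10 alternative settings 1 called Srsf5 lower in lung than in liver, and lung minus liver ran from -0.67 to 0.35 over them. Srsf2, Srsf4 and Srsf10 had no probe called between vehicle tissues.

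**Figure D4:**
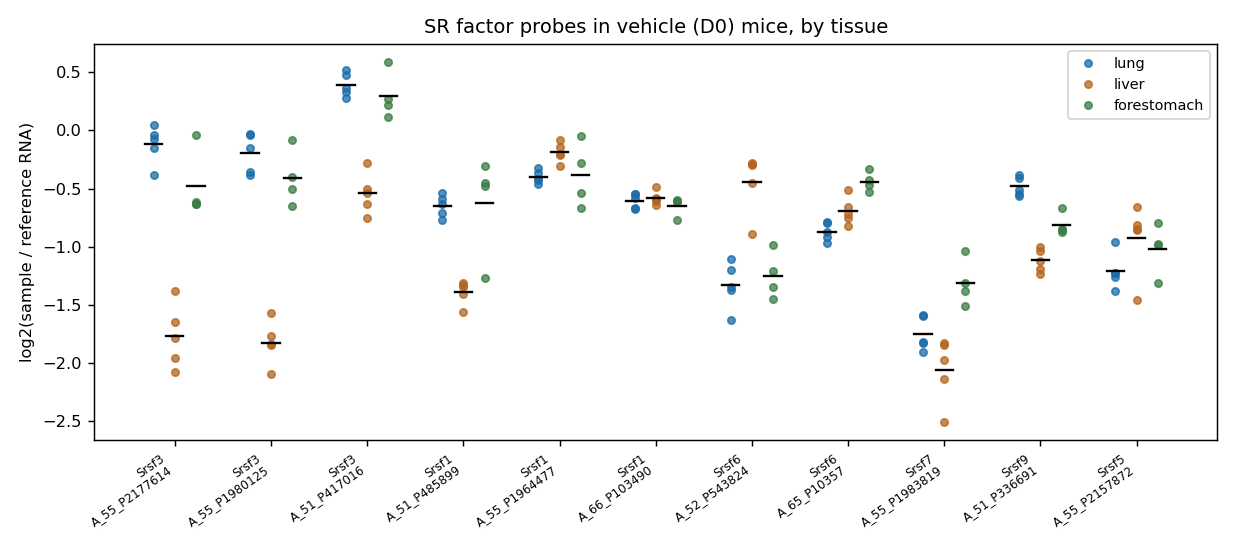
Levels of 11 SR factor probes in vehicle (D0) mice as log2 ratios over the reference, with points for mice and bars for tissue means. The Srsf3 probes lie lower in liver than in lung and forestomach, and levels are to be compared between tissues for a probe and not between probes.

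Clk1, Clk2 and Clk4, kinases that phosphorylate SR proteins, rose in lung at D3. The gene lists here and below were chosen with earlier results of these data known, so their calls and p-values are given as a description. A list of SR protein kinases and their nuclear importer had 10 genes, all tested in lung. At D3, 3 of them were called higher and none was called lower. In probes 4 of 13 were called, beside 1.88% of all probes. The list median was 0.05, beside 0.00 over all probes. Clk1 (A_52_P679152) rose by 0.88 ± 0.13 (SE, limma adjusted p = 0.000493) at D3 and by 0.64 ± 0.13 (adjusted p = 0.0132) at D2. Clk4 rose by 0.87 ± 0.11 (A_55_P2171008, adjusted p = 1e-04) and 0.81 ± 0.12 (A_52_P445387, adjusted p = 0.000418) at D3, and Clk2 by 0.64 ± 0.14 (adjusted p = 0.00793). Clk3, Srpk1 and the importer Tnpo3 stood at 0.11 ± 0.15, 0.05 ± 0.09 and -0.03 ± 0.07, Srpk3 at 0.42 ± 0.17, and Srpk2 at -0.32 ± 0.08, under the fold threshold. Prpf4b stood at -0.33 ± 0.09 (A_55_P2132472), also under the fold threshold, and at -0.02 ± 0.09 (A_52_P153848). Both Dyrk1a probes stood at -0.04.

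The CLK genes did not follow this course in liver, where Clk1 fell by 0.68 on the log2 scale at D2 (adjusted p = 0.0192) and stood at -0.44 ± 0.15 at D3. The D3 effect was larger in lung than in liver for Clk1 by 1.31 ± 0.20 (SE, limma adjusted p = 1.48e-05), for Clk2 by 0.98 ± 0.21 (adjusted p = 0.00314) and for both Clk4 probes by 1.14 and 0.95 (adjusted p = 1.44e-05 and 0.000405). In forestomach none of the 10 kinase and importer genes was called at any dose by limma (at most 1 of 13 probes at an unadjusted p under 0.05), and the larger effect in lung was called for Clk1 alone of the CLK genes (0.90 ± 0.20, adjusted p = 0.0268). The Clk1 level followed Srsf5 over the lungs with r = 0.85 and the Clk4 probes with 0.91 and 0.88. In the same order r was 0.36, 0.50 and 0.61 over the livers and 0.11, 0.55 and 0.49 over the forestomachs. These values pool the dose groups, and r within dose groups was not analysed for the CLK genes.

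**Figure D5:**
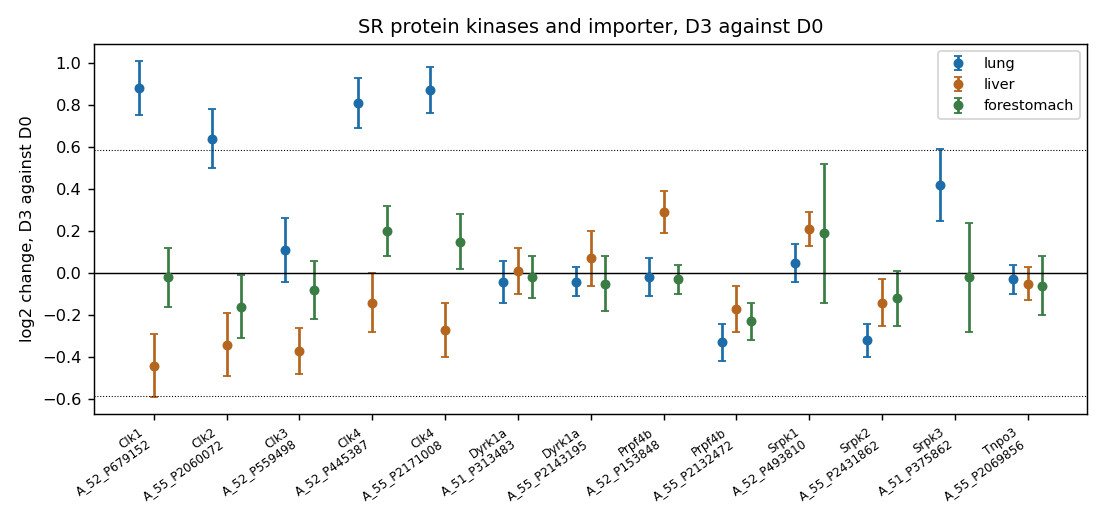
Log2 difference between D3 and D0 (± SE) for each probe of the SR protein kinase and importer list, in lung, liver and forestomach, with dotted lines at a 1.5-fold difference. Clk1, Clk2 and both Clk4 probes lie above the upper line in lung, and no probe passes a line in liver or forestomach.

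Among 26 SR-like and SR-related genes tested in lung, 3 rose and 1 fell at D3, with a list median of 0.00. In probes 4 of 40 were called, beside 1.88% of all probes. Pnisr, an SR-interacting protein, rose by 0.89 ± 0.17 (SE, limma adjusted p = 0.00345), Clasrp, a CLK4-associated SR protein, by 0.78 ± 0.13 (adjusted p = 0.00146), and Acin1, a component of splicing-linked complexes, fell by 0.82 (A_55_P2105321, adjusted p = 0.0207). In liver none of 25 rose, and Luc7l3 and the same Acin1 probe fell by 0.74 and 0.73 (limma adjusted p = 0.0123 and 0.0263). In probes 2 of 38 were called, beside 0.434% of all, and the list median was -0.08. The D3 effect was called larger in lung than in liver for Pnisr (1.68 ± 0.28, adjusted p = 7.78e-05) and Clasrp (1.04 ± 0.21, adjusted p = 0.00114), and not called different for this Acin1 probe (-0.09 ± 0.28) or Luc7l3 (0.28 ± 0.27). Another Acin1 probe (A_52_P367675) stood at -0.42 ± 0.16 in lung and -0.18 ± 0.08 in liver at D3, called in neither. Among 21 hnRNP genes in lung 2 rose and 1 fell at D3, with a list median of -0.03. In probes 4 of 37 were called, beside the same 1.88% of all. Hnrnpdl rose by 1.16 ± 0.13 (SE, A_55_P2116993, limma adjusted p = 2.92e-05), Hnrnpa2b1 by 0.63 ± 0.12 (A_55_P2017082, adjusted p = 0.00317), and Hnrnpc fell by 0.64 (A_52_P218537, adjusted p = 0.00107). Another probe of Hnrnpa2b1 (A_55_P1978628) stood at 0.12 ± 0.13 and another of Hnrnpc (A_55_P2171143) at -0.11 ± 0.07, neither of them called. Hnrnpdl was called larger in lung than in liver (1.65 ± 0.21, adjusted p = 2.46e-07) and than in forestomach (1.16 ± 0.21, adjusted p = 0.00266).

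Nonsense-mediated decay factors included Smg1, the kinase of the pathway, and Upf3b, an exon junction adaptor, which each rose by 0.63 ± 0.11 in lung at D3 (limma adjusted p = 0.00223 and 0.00191). These were 2 of 9 genes and 2 of 10 probes tested, beside 1.88% of all probes called, with a list median of 0.24. Smg1 fell in liver by 0.66 at D1 (adjusted p = 0.00651) and 0.64 at D2 (adjusted p = 0.0035), and its D3 effect differed between lung and liver by 1.09 ± 0.15 (adjusted p = 8.9e-07). None of the 18 core snRNP genes was called in any tissue or dose by limma, where 0 to 3 probes had an unadjusted p under 0.05, and the D3 list medians were -0.02 (lung), -0.03 (liver) and -0.06 (forestomach). No gene of the SR-like, hnRNP or decay lists was called by limma in forestomach, where at D3 6 of 41, 3 of 37 and 0 of 10 probes had an unadjusted p under 0.05.

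The probes that ran most like Srsf5 over the 20 lungs, among 18901 ranked probes with a symbol that are no member, were those of Trub2 (r = 0.97), Ddx5, Pkn3, Akap8 and Ermard (0.96 each). Ddx5 is an RNA helicase of the spliceosome. Over the 19 livers these 5 gave r from 0.20 to 0.68, and over the 19 forestomachs from 0.24 to 0.70. The 5 that ran most against it were 3 probes of Hspa8, a constitutive heat shock chaperone (r = -0.96, -0.94 and -0.93), Dnaja1, its co-chaperone (-0.92), and Sfpq, a splicing factor (-0.92). In forestomach the Hspa8 probes gave -0.92, -0.89 and -0.71 and Dnaja1 -0.91, in liver -0.20, -0.25, -0.59 and 0.27. Sfpq gave -0.32 in forestomach and -0.17 in liver. These correlations follow the dose groups, and with group means removed the 5 highest fell to 0.51 to 0.77 in lung and the 5 lowest to -0.64, -0.63 and -0.56 (Hspa8), -0.32 (Dnaja1) and -0.66 (Sfpq).

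Heat shock and clock genes moved beside Srsf5, and their part in its differences was not tested. In lung at D3, 8 of 14 heat shock genes tested fell and none rose, with a list median of -0.61, and Hspa1a fell by 2.95 on the log2 scale (limma adjusted p = 2.65e-05). In forestomach and in liver 1 of 14 fell, with medians of -0.37 and -0.05. Of 10 clock output genes 6 rose in lung at D3, Dbp by 1.80 ± 0.35 (A_55_P2032079, adjusted p = 0.0036), with a list median of 0.86. In liver and forestomach none of the 10 was called by limma, where the medians were 0.29 and 0.61 and 4 and 6 of 11 probes had an unadjusted p under 0.05. Of 7 AhR targets tested in lung 1 rose, Ahrr by 0.59 ± 0.14 (adjusted p = 0.0094), with a list median of -0.22. In probes 12 of 22 heat shock, 7 of 12 clock output and 1 of 9 AhR target probes were called in lung at D3, beside 1.88% of all lung probes. Among marker lists, 2 of 4 B cell genes rose in lung, where the mean of that list spanned 0.38 to 1.05 in D0 and 1.14 to 1.47 in D3 lungs, and no gene of the other marker lists was called at D3 in lung. The T cell list spanned 0.25 to 0.44 in D0 and 0.41 to 2.31 in D3 lungs, and the part of these cells in the result was not tested.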

How the data were processed

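Total RNA of lung, liver and forestomach was hybridised by the authors to Agilent SurePrint 8-array slides of mouse gene probes, with sample in Cy5 and a universal mouse reference RNA, a pool of mouse cell lines, in Cy3. The deposited scanner files hold spot intensity values from Feature Extraction 10.7.3.1, and the authors' deposited table holds log2 ratios of median signals made without background correction and with LOWESS. Here the median signals were taken through loess within each array, without background correction, in R 4.3.3 with limma 3.58.1, and log2(Cy5/Cy3) was averaged over spots of a probe. The result correlated with the authors' table at r of 0.995 to 0.998. Control spots and flagged outliers were left out, the latter 0.495% of gene spots. Of 55681 gene probes 26413 were given a symbol through their accession in a RefSeq table of GRCm38.p6. Probe positions and protein sequences were not used here.

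A probe was tested in a tissue where Cy5 was well above background on at least 4 arrays. Each tissue had 1 fit of its 4 dose groups, and 1 fit of all 12 groups over the 58 arrays gave the differences between tissues. P-values were adjusted by Benjamini-Hochberg over all probes tested, two-sided, at 0.05 with a fold of 1.5. The study's own test, MAANOVA, was replaced by limma. The fit was tested on simulated data. Samples were grouped by their labels. Same-numbered samples of different tissues came from 1 mouse per the labels. Over 21317 probes the deviations of such pairs from their group means correlated at a median r of 0.09 (-0.11 to 0.23, 56 pairs), against -0.03 for other mice of the dose group. Each tissue was fitted without the mouse, and the mouse entered as a replicate block in an alternative.

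Members, gene lists and the rule for named genes were chosen with earlier results of these data known. Values were given for every Srsf5 probe, for the 4 other member probes with the largest D3 difference in lung and the 2 in liver and in forestomach, for the 5 probes most and least like Srsf5, and for up to 2 called genes per direction of each splicing list at D3. The remaining members and a few kinases were added after their values were seen. Alternatives were the authors' table, Agilent's processed signals, normexp, median centring, the Cy5 channel alone, no filter, no minimum fold, slide or mouse as a block, and leaving out each mouse. The number of arrays limits the precision.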

Additional observations from a re-analysis of the deposited data

Results flagged for a closer look

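Within 44 groups of 4 or 5 arrays examined for the probes described, 4 held a sample far from the others, and chance alone flags about 1 group in 20. Srsf5 read -0.40 in the D1 lung of mouse 10, where the other D1 lungs read -0.83 to -0.74. Srsf5 read -1.46 in the D0 liver of mouse 5, where the others read -0.86 to -0.66. Srsf4 read 0.19 in the D0 liver of mouse 2, against -0.27 to -0.15 in the others. Srsf10 probe A_51_P519592 read 0.17 in the D1 forestomach of mouse 10, against 0.38 to 0.45. The D3 effect on Srsf5 differed between lung and liver by 1.03 on the log2 scale, larger in lung, in the fit of all 58 arrays.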

How the results depend on the processing

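The counts of called member probes held under the authors' table, normexp and no filter on dim probes. With the mouse as a replicate block, which pairs the tissues, the vehicle comparisons kept 6, 0 and 6 called probes, and with the slide as a random block, chosen after seeing the data, likewise. Median centring, which moved the median of all probes by up to 0.37 in the dose comparisons and to 0.18, -0.31 and -0.47 in the vehicle ones, gave 0 calls in lung at D2 and D3, 1 in liver at D2, 0 in forestomach at D3, 0 for the D3 effect of lung against liver, and 3, 2 and 11 for vehicle lung against liver, lung against forestomach and liver against forestomach. It turned Srsf3 A_55_P1980125 in lung at D3 (0.06) and, for vehicle liver minus forestomach, Srsf5 (-0.65) and Srsf6 A_52_P543824 (-0.07). Agilent's processed signals gave 2 in lung at D3, 1 in liver at D2, 0 in forestomach at D3 and 2 for lung against liver. The Cy5 channel alone gave 2 in lung at D3, 1 in liver at D2, and 15 and 16 for vehicle liver against lung and forestomach, where it shifted all probes to a median of 0.71 and -0.62, and it turned Srsf5 (0.35 and -0.63) and Srsf6 A_52_P543824 (0.18 and -0.39). No minimum fold gave 2 and 4 in lung at D2 and D3, 1 and 1 in liver, and 2 for lung against liver. In the vehicle comparisons it gave 11, 7 and 10. Of all probes, 22956 of 31304, 20029 of 34267 and 21261 of 33033 had an unadjusted p under 0.05 by limma in these. Shares of all probes called at the alternative settings are not given here, so the counts do not set members apart from other probes. Slide as a fixed block gave 1 in forestomach at D2, and a fit of the 2 groups alone gave 0 there at D3. Leaving out each mouse gave 0 to 0, 1 to 1 and 1 to 2 in lung over D1 to D3, 0 to 2, 0 to 1 and 0 to 0 in liver, 0 to 0, 0 to 0 and 0 to 1 in forestomach, 1 to 2, 0 to 0 and 0 to 0 for the D3 effects, and 6 to 6, 0 to 0 and 6 to 7 for vehicle tissues. The vehicle liver minus forestomach difference of Srsf5 ran from -0.07 without mouse 2 to 0.23 without mouse 5. The liver counts above 0 came without mouse 5. The causes were not tested beyond what each setting changes by construction.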
